A study of Rattus norvegicus with 8 samples.

Results

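The miR-30 family of rat kidney miRNAs was followed across 8 small RNA libraries, 4 from rats treated with aristolochic acid (AA) and 4 from control rats (CTL). The members were taken by name, as every row of the count table called miR-30a, 30b, 30c, 30d or 30e with any arm suffix. The rule found 14 of the 620 rows in the table. All 8 rats were male Fisher 344 rats of the Big Blue line, which carries a transgene for mutation assays, and their labelled age was 6 weeks. AA was given by gavage, as a sodium salt, in doses of 10.0 mg/kg on 5 days of each week over 12 weeks, and CTL rats received saline on that schedule. The AA preparation was a mixture of aristolochic acids I and II, and all rats were killed 1 day after the final dose. Each library came from the kidney of 1 rat, and 1 label field that names liver goes against the paper and the other labels.

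miRNAs are cut from hairpin precursors, first by Drosha and then by Dicer, and each hairpin can give a 5p and a 3p mature strand. Usually the strand with fewer reads carries an asterisk in the older naming used here. In the miR-30 family the 5p strands share a seed, the bases that pair with target mRNAs, and are the strands that guide most repression. The family is abundant in the kidney, where it is enriched in podocytes and also present in tubules, and it was required for normal kidney development in frog embryos. Among its known targets are Ctgf, a fibrosis-linked growth factor, Snai1, which drives epithelial-to-mesenchymal transition, and Becn1, which starts autophagy. AA is a kidney toxin and carcinogen that injures the proximal tubule.

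The sequences are shown because the family is defined by its seed and because the members differ by few bases, which bears on how reads can be assigned. The count table holds names and no sequences, so these were taken from RefSeq (build GRCr8) by matching names, with 4 of the 6 hairpin genes and 6 mature names found. The first 3 are the 5p strands, with bases 2 to 8 (the seed) in capitals.
rno-miR-30a (30a-5p): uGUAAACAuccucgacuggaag
rno-miR-30e (30e-5p): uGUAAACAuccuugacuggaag
rno-miR-30c (30c-5p): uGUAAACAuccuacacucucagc
The next 3 are 3p strands, with bases 2 to 8 in capitals in the same way.
rno-miR-30a* (30a-3p): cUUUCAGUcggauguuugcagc
rno-miR-30c-1* (30c-1-3p): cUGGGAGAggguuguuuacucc
rno-miR-30c-2* (30c-2-3p): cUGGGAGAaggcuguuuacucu
The 3 5p strands share the seed GUAAACA, the 3p strands of the 2 miR-30c hairpins share the seed UGGGAGA, and miR-30a* has the seed UUUCAGU. Counted from 1 at the 5′ end, with the base of the first-named strand written first, miR-30a and miR-30e differ only by C13U over 22 bases. Between miR-30a and miR-30c, 17 of 22 bases are the same and the differences are C13A, G14C, G18C, G19U and A20C. miR-30c-1* and miR-30c-2* differ by G9A, U12C and C22U. A read of miR-30a with 1 mismatch could therefore be counted on miR-30e or the reverse, and the mismatches allowed for known miRNAs are not given in the sources used here.

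The hairpins lie in 3 genomic pairs. Mir30a (chr9:33233941-33234011, plus strand, GRCr8) and Mir30c2 (chr9:33253682-33253765, plus strand) are 19670 bases apart. Mir30c1 (chr5:139634455-139634543, minus strand) and Mir30e (chr5:139637450-139637541, minus strand) are 2906 bases apart, and both lie within the span of Nfyc, which codes for a subunit of the transcription factor NF-Y. Mir30b and Mir30d both lie within the span of the lncRNA gene LOC102551574 on chromosome 7. The table of gene spans used here does not say whether these positions are exonic or intronic. The Mir30a and Mir30c2 hairpins are shown to place both arms, which are in capitals.
Mir30a: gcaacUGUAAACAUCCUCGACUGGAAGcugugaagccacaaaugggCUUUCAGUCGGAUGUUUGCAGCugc
Mir30c2: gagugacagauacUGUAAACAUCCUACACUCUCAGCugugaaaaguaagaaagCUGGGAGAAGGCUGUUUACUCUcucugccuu
The mature miR-30c strand is the same in Mir30c1 and Mir30c2, so its reads cannot be split between these hairpins, whereas the 3p strands can be.

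The authors deposited whole-number read counts per miRNA, and the libraries held from 13412373 to 15616670 reads on all listed miRNAs. Levels are given as CPM, the reads per 1e+06 reads of a library whose size was corrected by TMM (a scaling that is less affected by the few most abundant miRNAs). Mature miRNAs have nearly the same length, so that levels of different rows were not divided by length, but a level here is a share of reads and ligation can favour some sequences. AA was compared with CTL by the quasi-likelihood test of edgeR over the 367 rows with at least 10 reads in at least 4 libraries, and p-values were adjusted over all of these. A p-value here weighs the difference between the groups against the spread between rats of 1 experiment. miR-192, abundant in kidney epithelium, was at 14295 to 74962 CPM, and the liver miRNA miR-122 was at 0.696 to 53.0 CPM in 7 libraries but at 523 CPM in AA2. In 74 of the 367 tested rows, CTL4 and AA4 were each the highest library of their group, so that values without these libraries are given where they matter.

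Of the 14 rows, 11 passed the filter on low reads. The other 3, which repeat the names of 3p rows with a lower-case "mir" (rno-mir-30a*, rno-mir-30c-2* and rno-mir-30e*), held 7 reads in all and at most 2 in a library, and were not tested. The table has 61 rows spelled in this way, and 33 of them repeat the name of another row. The 11 tested rows comprised 5 taken as the 5p arm and 6 taken as the 3p arm. For miR-30d, miR-30d* and miR-30e*, the arm is not in the name and no sequence was found, so it was assumed.

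The miR-30 rows together took nearly as large a share of the reads in AA as in CTL kidneys. In the CTL libraries the family made up 19.3%, 17.1%, 19.2% and 18.7% of the reads in CTL1 to CTL4. In the AA libraries it made up 17.7%, 17.4%, 21.4% and 16.6% in AA1 to AA4. AA3 had the highest share of all 8 libraries and AA4 the lowest, so that the AA group enclosed the CTL group. The group means were 18.6% ± 1.05 (SD, n = 4) in CTL and 18.3% ± 2.16 (SD, n = 4) in AA. The 95% Wilson intervals of these shares, which cover counting error only, were narrow, for example 16.5% to 16.6% in AA4. On the TMM scale the same sums were 199962 ± 18191 CPM in CTL and 171061 ± 27739 CPM in AA (SD, n = 4 each), so that the log2 difference was -0.03 as a share of reads and -0.23 in CPM. No p-value is given for these sums, since they are scores over chosen members. In bulk tissue, fewer cells of a type and less of a miRNA per cell cannot be told apart.

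**Figure D1:**
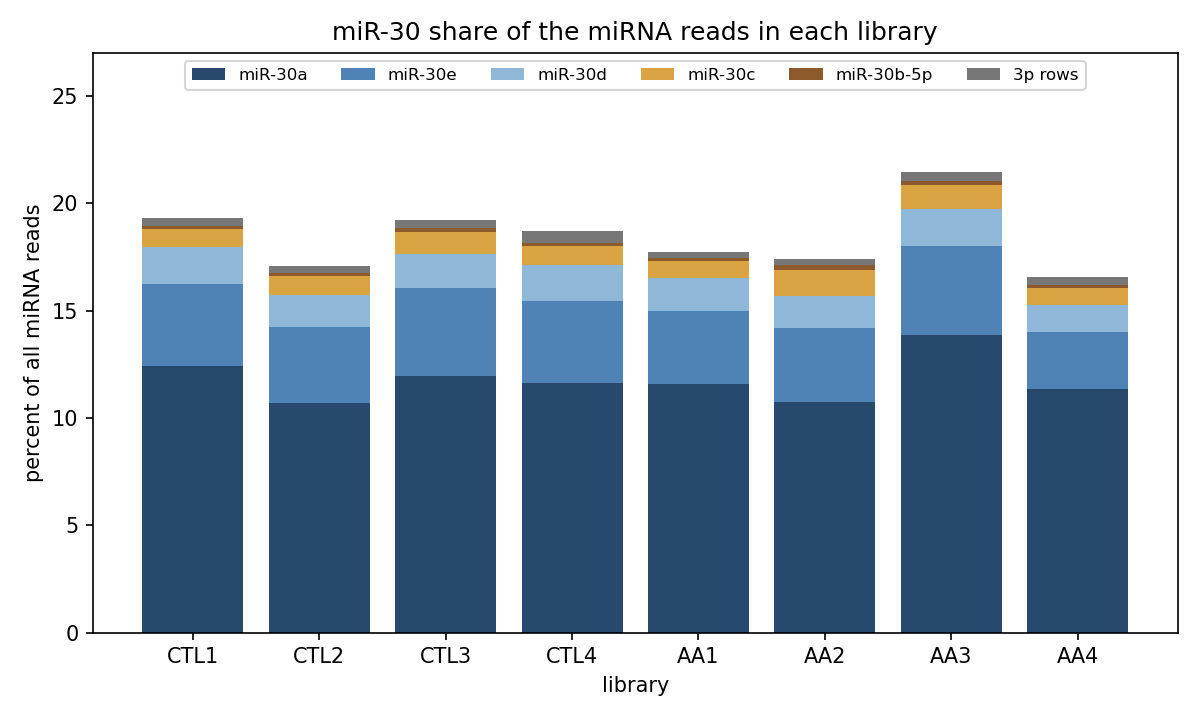
Bars show the percent of all miRNA reads in each of the 8 libraries that fell on the miR-30 rows, split into the 5 rows of the 5p arm and the sum of the remaining rows (grey). The bars reach from 16.6% (AA4) to 21.4% (AA3), and miR-30a is the largest part in every library.

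rno-miR-30a dominated the family. It made up 62.8% ± 1.04 of the family's reads in CTL and 65.1% ± 2.84 in AA (SD, n = 4 each), and ranked 3 among all 620 rows by mean CPM. rno-miR-30e followed with 20.6% ± 0.633 in CTL and 18.4% ± 1.78 in AA (SD, n = 4 each). rno-miR-30d took 8.66% ± 0.294 in CTL and 8.35% ± 0.436 in AA, and rno-miR-30c took 4.92% ± 0.464 and 5.27% ± 1.06 (SD, n = 4 each). rno-miR-30b-5p, the least abundant 5p strand, took 0.866% ± 0.113 in CTL and 1.01% ± 0.286 in AA (SD, n = 4 each). All 6 tested 3p rows together made up 2.16% ± 0.514 of the family in CTL and 1.79% ± 0.270 in AA (SD, n = 4 each).

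In order of mean CPM over the 8 libraries, the rows ran miR-30a, miR-30e, miR-30d, miR-30c, miR-30a*, miR-30b-5p, miR-30e*, miR-30c-2*, miR-30d*, miR-30b-3p and miR-30c-1*. The 4 leading rows had ranges over the 8 libraries that did not overlap with their neighbours. In the middle of the order, miR-30a* lay above miR-30b-5p in 3 of 8 libraries and miR-30b-5p lay above miR-30e* in 6 of 8, so that the order of these 3 rows was not resolved. At the low end, miR-30d* lay above miR-30b-3p in 7 of 8 libraries and miR-30b-3p above miR-30c-1* in 8 of 8, although their ranges overlapped. The levels spanned from a mean of 118545 CPM for miR-30a, rank 3 of all rows, to 2.59 CPM for miR-30c-1*, rank 287.

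**Figure D2:**
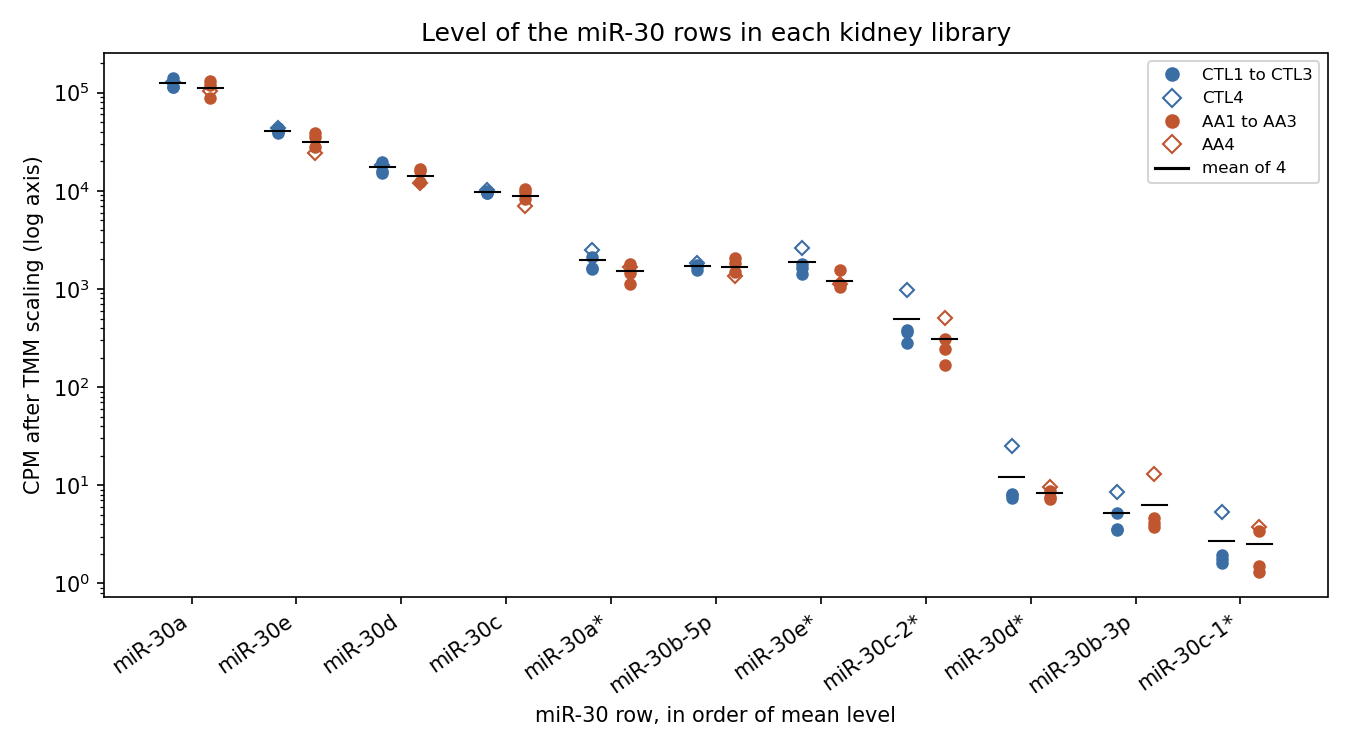
Each symbol is the CPM of a miR-30 row in 1 library (log axis), with CTL left and AA right for each row, diamonds for CTL4 and AA4, and a line at the mean of 4. Across the 8 libraries, the 5p rows varied by 1.49 to 1.80-fold from lowest to highest, while miR-30c-2* varied by 5.76-fold.

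Whether AA treatment changed the level of any member was asked row by row. No row of the family passed the test, 0 of 11 at an adjusted p-value of 0.05 (edgeR's quasi-likelihood test), against 16.3% of all 367 tested rows. At an unadjusted p under 0.05, 1 of the 11 rows, miR-30e*, would have been counted, against 30% of all tested rows. The DESeq2 Wald test also called 1, the same row, against 21.4% of the 355 rows to which it gave an adjusted p. In none of the 11 rows did the AA rats lie wholly apart from the CTL rats, against 24.3% of all tested rows. The fitted log2 fold change was negative in 10 of 11 rows, against 45.2% of all tested rows, with a median of -0.28 in the family and 0.06 over all rows. These directions depend on the scaling, because with total counts in place of TMM the median moved to -0.08 in the family and to 0.27 over all rows, and miR-30a, miR-30b-5p, miR-30c and miR-30c-1* turned positive.

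For rno-miR-30a, the strand that accounts for most of the family's reads, the CTL libraries had 142058, 115355, 115262 and 129870 CPM and the AA libraries 119978, 88678, 131974 and 105186. AA2 was the lowest and CTL1 the highest, and the groups overlapped. The log2 fold change was -0.17 (95% interval -0.56 to 0.21, adjusted p = 0.513 from edgeR).

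For rno-miR-30e, made from the Nfyc locus, the CTL libraries had 43608, 38436, 39320 and 43203 CPM and the AA libraries 35121, 28275, 39114 and 24193. AA3 alone reached the CTL range, and the other 3 AA libraries lay below every CTL library. The log2 fold change was -0.38 (95% interval -0.77 to 0.02, adjusted p = 0.184 from edgeR), so that it did not pass the test.

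For rno-miR-30d, the CTL libraries had 19875, 15826, 15365 and 18325 CPM and the AA libraries 16083, 12437, 16681 and 11962. AA2 and AA4 lay below the CTL range while AA1 and AA3 lay inside it. The log2 fold change was -0.28 (95% interval -0.65 to 0.10, adjusted p = 0.288 from edgeR).

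For rno-miR-30c, whose reads come from both miR-30c hairpins, the CTL libraries had 9511, 9571, 9908 and 10099 CPM and the AA libraries 8274, 9763, 10500 and 7064. The CTL rats lay close together and the AA rats spread to both sides of them. The log2 fold change was -0.13 (95% interval -0.48 to 0.21, adjusted p = 0.576 from edgeR).

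For rno-miR-30b-5p, the CTL libraries had 1559, 1731, 1762 and 1819 CPM and the AA libraries 1483, 2058, 1853 and 1363. Here too the AA rats enclosed the CTL rats, with AA2 highest and AA4 lowest. The log2 fold change was -0.02 (95% interval -0.39 to 0.34, adjusted p = 0.924 from edgeR).

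**Figure D3:**
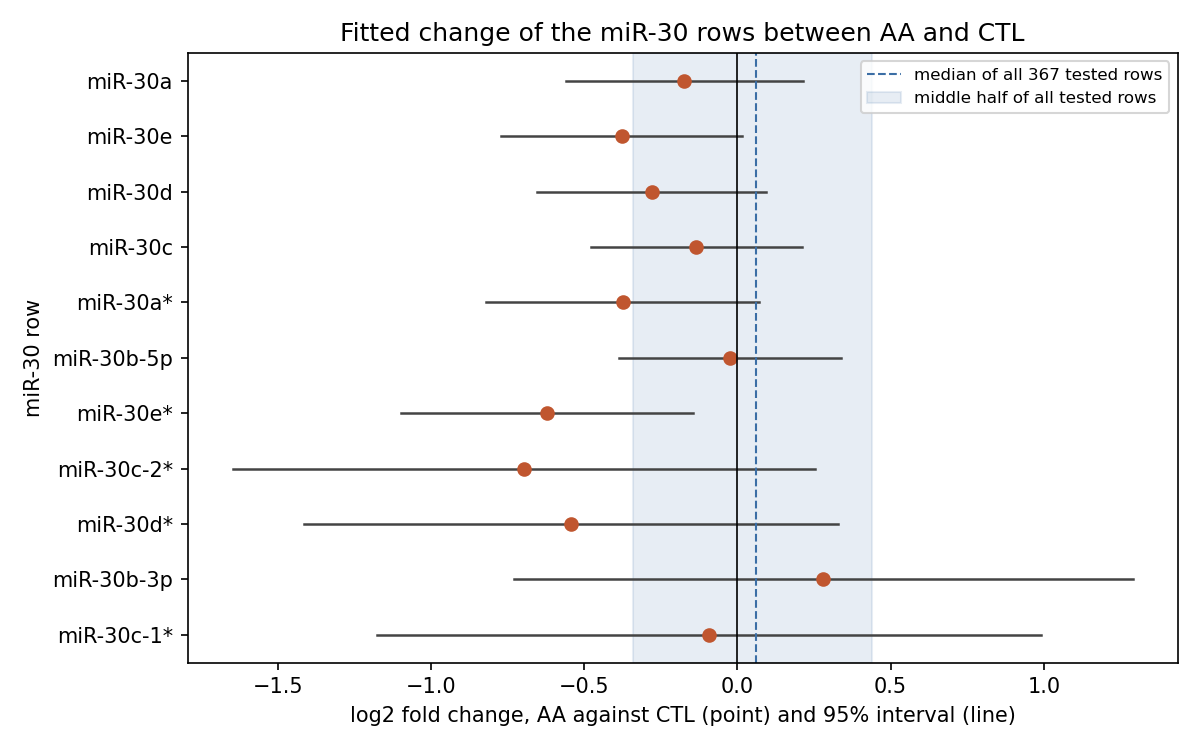
Points are the fitted log2 fold changes of the 11 tested miR-30 rows between AA and CTL, and lines are their 95% intervals before adjustment for the number of rows. The dashed line is the median of all 367 tested rows (0.06) and the band spans the quartiles (-0.34 to 0.44), and only the interval of miR-30e* does not reach 0.

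The 3p rows showed wider intervals than the 5p rows. rno-miR-30e*, the opposite strand of miR-30e, had 1816, 1420, 1618 and 2607 CPM in CTL1 to CTL4 and 1122, 1046, 1553 and 1128 in AA1 to AA4. AA3 alone overlapped with the CTL libraries. Its log2 fold change was -0.62 (95% interval -1.10 to -0.14), with an unadjusted p of 0.0157 and an adjusted p of 0.0799 from edgeR. The call depended on the fit, since the adjusted p was 0.0397 with the DESeq2 Wald test and 0.0471 without AA3 in edgeR.

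rno-miR-30a*, the opposite strand of miR-30a, had 2099, 1598, 1648 and 2507 CPM in the CTL libraries and 1456, 1133, 1791 and 1677 in the AA libraries. Its log2 fold change was -0.37 (95% interval -0.82 to 0.07, adjusted p = 0.238 from edgeR), and the groups overlapped. miR-30a* and miR-30e* were highest in CTL4 among the CTL libraries and in AA3 among the AA libraries.

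rno-miR-30c-2*, made only from the hairpin next to Mir30a, had 381, 282, 362 and 967 CPM in CTL1 to CTL4 and 310, 168, 243 and 508 in AA1 to AA4. In both groups the library numbered 4 was the highest, and AA4 lay above 3 of the CTL libraries. The log2 fold change was -0.70 (95% interval -1.65 to 0.25, adjusted p = 0.294 from edgeR), and it was -0.16 without CTL4, -1.21 without AA4 and -0.56 without both.

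The remaining 3p rows were rare. rno-miR-30d* had 106, 110, 121 and 306 reads in CTL1 to CTL4 and 99, 133, 126 and 163 in AA1 to AA4. rno-miR-30b-3p had 70, 48, 58 and 106 reads in CTL1 to CTL4 and 53, 69, 68 and 218 in AA1 to AA4. rno-miR-30c-1* had 26, 24, 26 and 66 reads in CTL1 to CTL4 and 44, 24, 22 and 64 in AA1 to AA4. In each of these rows the library numbered 4 was again the highest of its group. Their log2 fold changes were -0.54, 0.28 and -0.09 (adjusted p = 0.359, 0.701 and 0.906 from edgeR), with a 95% interval from -1.17 to 0.99 for miR-30c-1*. Single libraries set these signs. Without CTL4, miR-30d* was at 0.079 and miR-30c-1* at 0.49. miR-30b-3p was at -0.45 without AA4 and -0.027 without CTL3, and miR-30c-1* was at 0.053 without AA2 and 0.086 without AA3.

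The reads of neighbouring hairpins and of opposite arms were then compared as ratios within each library, which need no scaling between libraries. This was done for 4 ratios between genomic neighbours and 6 between arms, with 0.5 reads added to both counts on the log2 scale and an exact permutation test (two-sided). The smallest p that 4 rats against 4 can give is 0.0286. A single ratio with that p would not pass after adjustment over the 10 ratios. None of the 10 ratios passed this exact test (smallest p = 0.0857, smallest adjusted p = 0.762 over the 10 ratios), and in all of them the groups overlapped.

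miR-30e and miR-30c, neighbours in the Nfyc locus, had the smallest p. There were 4.59, 4.02, 3.97 and 4.28 reads of miR-30e per read of miR-30c in CTL1 to CTL4 and 4.24, 2.90, 3.72 and 3.42 in AA1 to AA4. The other 3 AA rats lay below all CTL rats, while AA1 lay among them. The log2 difference was -0.25 (standard error 0.13, exact permutation p = 0.0857).

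For miR-30a and miR-30c the ratio was 14.9, 12.1, 11.6 and 12.9 in the CTL libraries and 14.5, 9.08, 12.6 and 14.9 in the AA libraries, with a log2 difference of -0.03 (standard error 0.18, exact permutation p = 0.857), which was 0.04 without CTL1 and 0.12 without AA2. miR-30c-2* gives a measure of the Mir30c2 hairpin alone. Its ratio, as reads of miR-30a per read of miR-30c-2*, was 373, 409, 319 and 134 in CTL1 to CTL4 and 387, 528, 543 and 207 in AA1 to AA4, with a log2 difference of 0.45 (standard error 0.49, exact permutation p = 0.457). That difference was 0.094 without CTL4, 0.76 without AA4 and 0.40 without both. For the neighbours miR-30d and miR-30b-5p, there were 12.7, 9.14, 8.72 and 10.1 reads of miR-30d per read of miR-30b-5p in CTL1 to CTL4 and from 6.04 (AA2) to 10.8 (AA1) in the AA libraries. As the ratio of miR-30b-5p to miR-30d, the log2 difference was 0.25 (standard error 0.21, exact permutation p = 0.371), and it was 0.083 without AA2. AA2 was the lowest library in the reads of miR-30a and miR-30e per read of miR-30c and of miR-30d per read of miR-30b-5p.

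The 5p reads exceeded the 3p reads in all 6 ratios of arms, by very different margins. miR-30a had 67.7, 72.2, 69.96 and 51.8 reads per read of miR-30a* in CTL1 to CTL4 and 82.4, 78.3, 73.7 and 62.7 in AA1 to AA4. miR-30e had 24.01, 27.1, 24.3 and 16.6 reads per read of miR-30e* in CTL1 to CTL4 and 31.3, 27.02, 25.2 and 21.4 in AA1 to AA4. miR-30c had 24.96, 33.9, 27.4 and 10.4 reads per read of miR-30c-2* in CTL1 to CTL4 and 26.7, 58.1, 43.2 and 13.9 in AA1 to AA4. These ratios rested on at least 3095 reads of the 3p strand in each library. For the rarer 3p strands, with 22 to 306 reads in a library, the ratio ranged from 735 to 2500 for miR-30d to miR-30d*, from 106 to 550 for miR-30b-5p to miR-30b-3p, and from 1863 to 7498 for miR-30c to miR-30c-1*. As miR-30c comes from both of its hairpins, its ratios to miR-30c-1* and miR-30c-2* share the same numerator and are upper values for either hairpin.

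The AA minus CTL differences of these 6 arm ratios, on the log2 scale, were 0.19 (standard error 0.14) for miR-30a, 0.20 (0.19) for miR-30e, 0.49 (0.59) for miR-30c to miR-30c-2*, -0.09 (0.64) for miR-30c to miR-30c-1*, 0.06 (0.43) for miR-30d and -0.21 (0.60) for miR-30b. Exact permutation p-values were between 0.229 and 0.971. Without CTL4 and AA4 the differences were 0.16 for miR-30a, 0.14 for miR-30e, 0.51 for miR-30c to miR-30c-2*, -0.12 for miR-30c to miR-30c-1*, -0.17 for miR-30d and 0.05 for miR-30b, so that the last 2 changed sign. For miR-30c to miR-30c-2* the difference was 0.12 without CTL4 and 0.87 without AA4. Leaving out each library in turn gave -0.47 to 0.26 for miR-30c to miR-30c-1*, -0.33 to 0.26 for miR-30d and -0.50 to 0.29 for miR-30b, where the lowest values were without CTL4, CTL4 and AA2 and the highest without AA4, CTL1 and AA4. A change of arm usage with AA was therefore not detected, but after adjustment the test could not have called a change in a single ratio. The standard errors show that a change could be judged more closely for miR-30a and miR-30e than for the other hairpins.

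In all 6 arm ratios, the lowest value of the CTL group was in CTL4 and the lowest of the AA group was in AA4. Both rows were tested in 118 other pairs of arms, matched by name and taken as the more abundant row over the less abundant. In 23 of them, or 19.5%, the ratio was lowest in both CTL4 and AA4. Some rows recur among these pairs. miR-125b* was paired with miR-125b-3p although both were also paired with miR-125b-5p, so that not every pair need be of opposite arms. Among single rows, 4 of the 6 3p rows and 0 of the 5 5p rows were highest in both CTL4 and AA4, against 74 of all 367 tested rows, or 20.2%. miR-30c-2* was 2.83 times the mean of the other CTL libraries in CTL4 and 2.11 times the mean of the other AA libraries in AA4. For miR-30b-3p these values were 2.09 and 3.09, for miR-30c-1* 3.03 and 1.83 and for miR-30d* 3.18 and 1.23. In contrast, miR-30a was 1.05 and 0.926 times and miR-30e 1.07 and 0.708 times the mean of the others. The pattern was noticed in these values and is given without a test.

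**Figure D4:**
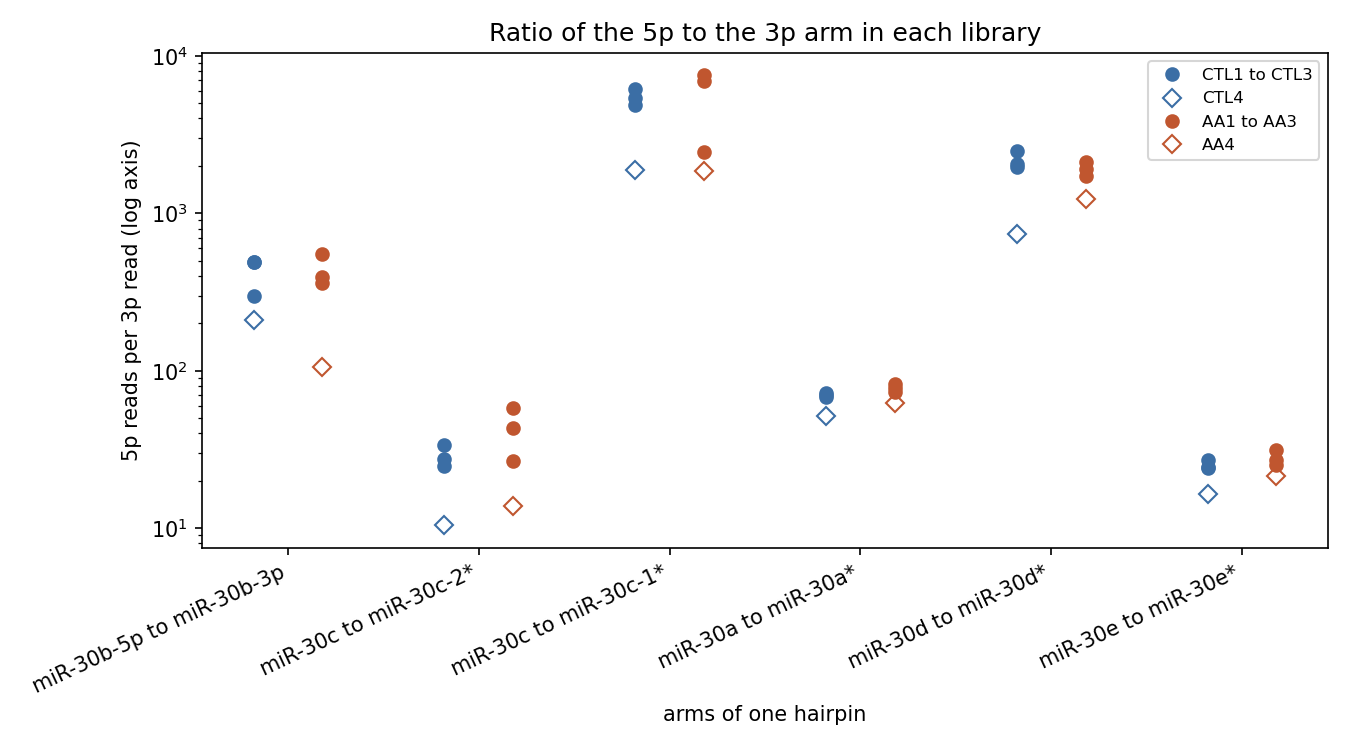
Each symbol is the number of 5p reads per 3p read in 1 library (log axis) for the arms of a miR-30 hairpin, with CTL left and AA right, and diamonds for CTL4 and AA4. In all 6 pairs of arms the diamond is the lowest symbol of its group.

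Lists of miRNAs associated with cell types were read in the same libraries. Of the lists, miR-192 alone among 9 tubule and epithelial miRNAs was highest in both CTL4 and AA4, with 74962 CPM in CTL4 and 28270 CPM in AA4, and the list summed to 84544 CPM in CTL4 and 34652 CPM in AA4. The same was true of 1 of 3 podocyte-associated miRNAs (miR-23b) and 2 of 4 leukocyte miRNAs (miR-150 and miR-223). It also held for 2 of 3 stromal miRNAs (miR-199a-5p and miR-214). For red blood cell and liver miRNAs it held in 0 of 2 and 0 of 1. Their part in the arm ratios was not tested.

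Over all 8 libraries, the 5p members most alike in profile were not those of the same genomic pair. As a measure of likeness, the root mean square (RMS) difference between the log2 CPM profiles over 8 libraries, each centred on its mean, was taken for the 10 pairs of 5p members. It was smallest for miR-30d with miR-30e (0.10), miR-30a with miR-30d (0.10) and miR-30b-5p with miR-30c (0.10), followed by miR-30a with miR-30e (0.17). The 6 other pairs, each joining miR-30b-5p or miR-30c to one of the other members, lay between 0.20 and 0.30. Among them were all 3 genomic pairs, with 0.29 for miR-30b-5p and miR-30d, 0.22 for miR-30a and miR-30c and 0.20 for miR-30e and miR-30c. As miR-30c reads come from both of its hairpins, the values with miR-30c do not describe a single genomic pair. The split between the 4 close pairs and the 6 others rested in part on AA2. Without AA2 the close pairs reached up to 0.18 and the others lay between 0.13 and 0.19. Without CTL1 the close pairs reached up to 0.18 and the others went down to 0.18. The grouping was made after these values were seen and has no test.

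In reads, miR-30c stood at 6.10, 5.53, 5.62 and 5.55 per read of miR-30b-5p in CTL1 to CTL4 and at 5.58, 4.74, 5.67 and 5.18 in AA1 to AA4. miR-30a stood at 7.15, 7.29, 7.50 and 7.09 per read of miR-30d in CTL1 to CTL4 and at 7.46, 7.13, 7.91 and 8.79 in AA1 to AA4. From the lowest to the highest library these ratios varied by 1.29-fold and 1.24-fold, while the ratio of the neighbours miR-30d and miR-30b-5p varied by 2.11-fold. Because miR-30a and miR-30e differ by a single base, any shared counting of their reads would bring their profiles closer, and this was not tested. The same limit may hold for the closest pairs, each of which includes miR-30d or miR-30b-5p. The sequences of these strands were not found, so that this could not be judged.

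Of the 50 rows with a mean of at least 1000 CPM, 43 are outside the family. The profile of the summed family was nearest to that of miR-99b (RMS 0.12), miR-26b (0.15) and miR-26a (0.19), against a median of 0.33 over the 43 rows. In these terms, each of the 5 5p members and miR-30e* had its nearest row within the family, while miR-30a* was nearest to miR-26a (RMS 0.14). All of these profiles share the same 8 libraries and scaling factors.

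Other miRNAs linked to the same cells were set beside the family. As a background for these lists, 60 of all 367 tested rows (16.3%) passed the test, 38 higher and 22 lower. Of the podocyte-associated miR-23b, miR-24 and miR-26a, 0 of 3 passed the test, with log2 fold changes of 0.02, 0.00 and -0.40. Of 9 tubule and epithelial miRNAs, 0 were higher and 2 were lower, miR-194 and miR-204, with log2 fold changes of -0.73 and -0.80 (adjusted p = 0.0499 and 0.0337 from edgeR) and a median of -0.34 for the list. Within this list, only miR-200c (0.42) and miR-141 (0.13) had a positive log2 fold change, and neither was called. The summed list lay between 34334 and 84544 CPM in CTL and between 24732 and 35812 CPM in AA. Most of this sum was miR-192, which did not pass (adjusted p = 0.199 from edgeR), and the CTL maximum was in CTL4. Among miRNAs of other cells, 2 of 4 leukocyte miRNAs (miR-142-3p by 1.47 and miR-223 by 1.02 on the log2 scale) and 1 of 3 stromal miRNAs (miR-199a-3p by 0.65) were higher, and 0 of 2 red blood cell miRNAs (miR-144 and miR-451) and 0 of 1 liver miRNA passed. The summed leukocyte list was at 914 to 1264 CPM in CTL and 2057 to 4121 CPM in AA, and the summed stromal list at 468 to 526 CPM in CTL and 536 to 994 CPM in AA. Most of the leukocyte sum was miR-142-3p. The uncalled miR-142-5p and miR-150 had log2 fold changes of 0.30 and 0.58 (adjusted p = 0.559 and 0.0617 from edgeR). None of the listed miRNAs was at 0 in any library. The part of such cells in the miR-30 levels was not tested.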

How the data were processed

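Size-selected small RNA of 8 rat kidneys was read on the Illumina Genome Analyzer II. The authors deposited raw counts of reads per known rat miRNA. The submitters' processing notes name Bowtie and DESeq. The paper describes read filtering and mapping with miRanalyzer for its search for unknown miRNAs, and how this table of known miRNAs was counted (mismatches, multiple matches, genome build) is not given in the sources used here.

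Groups and numbers came from sample titles. Rows with at least 10 reads in at least 4 libraries entered the quasi-likelihood fit of edgeR (version 4.0.16, R 4.3.3), with TMM and Benjamini-Hochberg adjustment over 367 rows (threshold 0.05), after a check on simulated data. The standard error was the log2 fold change divided by the square root of F, and 95% intervals used the fit's degrees of freedom. Ratios were tested with SciPy 1.17.1. Alternatives were DESeq2 size factors, total counts, DESeq2 1.42.0, other filters, a library number block, and leaving out each library. Libraries of the same group differed by at least 296 times counting error (chi-square per degree of freedom), so that each was counted as 1 sample.

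Members, marker lists and tests were chosen with earlier results of these data known. The text names every family member, the listed markers and the nearest profiles. The grouping of members by profile, the comparison of the libraries numbered 4 and the fit without them were chosen after the values were seen.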

Additional observations from a re-analysis of the deposited data

Results flagged for a closer look

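In 5 of the 44 groups of 4 libraries examined (11 rows and 10 ratios in CPM or log2, and the family's share of reads), 1 library lay far from the rest of its group by Dixon's criterion, and about 2.2 would do so by chance. All 5 were 3p rows. In CTL4, miR-30d* reached 24.9 CPM while CTL1 to CTL3 had 7.50 to 8.10, miR-30c-1* at 5.38 against 1.61 to 1.95, and miR-30c-2* at 967 against 282 to 381. miR-30b-3p reached 12.9 CPM in AA4, while AA1 to AA3 had 3.74 to 4.68. In AA3, miR-30e* was at 1553 CPM against 1046 to 1128. Of these 5 values, 4 were in the libraries numbered 4, and a shared source was not tested.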

How the results depend on the processing

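No miR-30 row was called in the main fit, nor with DESeq2 size factors, total counts, either filter, the 6 libraries numbered 1 to 3 (added after the values were seen) or in 7 of the 8 fits without 1 library. The DESeq2 Wald test called 1 row (miR-30e*), the fit without AA3 called 1 row (miR-30e*, in a range of 0 to 1), and the fit with the library number as a replicate block called 1 row (miR-30c-2*, log2 fold change -0.64, adjusted p = 0.0225). The numbers were not taken to pair the rats, because the match failed for number 1. The correlation of deviations across miRNAs between same-numbered libraries was 0.05 for number 1, against 0.22, 0.18 and 0.41 for the others. CTL1 and AA1 correlated best with libraries numbered 2 (0.15 and 0.13). For numbers 2, 3 and 4, the same-numbered library was the best match for CTL and AA alike. Over all miRNAs, 60 were called (38 higher and 22 lower, against 54 and 14 with total counts and 27 and 25 with libraries 1 to 3), 78 with the block and 35 to 51 without 1 library, the lowest without CTL2 and 37 without CTL1.

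Signs of uncalled rows turned as follows. With total counts, miR-30a was at 0.028, miR-30c at 0.077, miR-30b-5p at 0.19 and miR-30c-1* at 0.11. With at least 10 reads in all 8 libraries, miR-30b-5p was at 0.012. With libraries 1 to 3, miR-30b-5p was at 0.044, miR-30b-3p at -0.023 and miR-30c-1* at 0.14. Without 1 library, miR-30b-5p ranged from -0.20 to 0.0023, miR-30d* from -0.89 to 0.079, miR-30b-3p from -0.45 to 0.63 and miR-30c-1* from -0.53 to 0.49. The log2 difference of the family sum was -0.03 as a share of reads and -0.23 in CPM. With the block, or with 1 read added in place of 0.5, 0 of the 10 ratios passed, but 4 pairs of rats cannot reach a p below 0.125 and 3 rats against 4 cannot reach one below 0.0571.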
